A study of Mus musculus with 7 samples.

Results

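Nlgn1 encodes neuroligin 1, a postsynaptic adhesion protein that spans the membrane and binds neurexins on the presynaptic side. It is best known from excitatory synapses, where it helps to organise the postsynaptic scaffold. Its gene is very long and nearly all of that length is intron, sequence that is transcribed and then removed by splicing in the nucleus. Argonaute is the protein that carries microRNAs and uses their seed, bases 2 to 8, to find target RNAs; most known targets are spliced mRNAs in the cytoplasm.

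All crosslink positions and miR-216 sites inside the annotated Nlgn1 gene and on its strand were taken: 86 of 14054 crosslink positions (0.612%) and 4 of 394 distinct miR-216 sites. The gene was chosen by its number of intronic positions in the same table, so that number, the class of the positions and their place are described and not tested. The study made 5 PAR-CLIP libraries with the Argonaute antibody 2A8 and 2 control libraries with a mouse IgG1 isotype antibody. In PAR-CLIP, 4-thiouridine is built into new RNA and ultraviolet light links it to the protein it touches. Each of the 7 libraries pooled 6 retinas, taken from CD-1 mouse pups at postnatal day 0. The explants were kept for 24 h with 4-thiouridine at 0.1 mM and horse serum at 20%, and then received light of 365 nm at a dose near 300 mJ/cm2. The tables pool the Argonaute libraries and give for each position only the number of libraries, from 2 to 5, that contain it. A position found in 1 library is not in the table, values of the IgG libraries were not used here, and the depth of reads at a position is unknown. Whether the Nlgn1 positions also occur in the IgG libraries was not tested. More Nlgn1 RNA in each cell, more cells with it, and more Argonaute on that RNA cannot be told apart in these pooled tissue data.

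The miR-216 microRNAs are the ones the study is about, and 4 of their sites lie in Nlgn1. Their mature sequences (RefSeq, GRCm38.p6) are shown with the seed in capitals, because the last seed base is where they part and decides the names of the Nlgn1 sites.
mmu-miR-216a-5p: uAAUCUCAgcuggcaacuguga
mmu-miR-216b-5p: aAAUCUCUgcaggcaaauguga
Seed bases 2 to 7 are shared and pair with GAGATT, which is a match to either microRNA. Bases 3 to 8 pair with TGAGAT for miR-216a and with AGAGAT for miR-216b, the offset 6mers that tell them apart.

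Nlgn1 (ENSMUSG00000063887.13) lies on chromosome 3 from 25426215 to 26332460 on the minus strand (mm10), a length of 906.2 kb of which 892.8 kb is intron. Introns were numbered in Nlgn1-205 (ENSMUST00000193603.5), which has 8 exons and 7 introns. Of the 86 positions, 85 were intronic and 1 was exonic. The exonic position, at 25433512, lay in the 3′ UTR in exon 8, 129 nt past the last coding base of a 7426 nt UTR, and was found in 2 libraries. No position lay in coding sequence or the 5′ UTR. No opposite-strand position lay inside the gene, and the nearest one outside was 3.42 kb upstream of its annotated start. The nearest same-strand positions outside it were 1086 kb upstream and 337.6 kb downstream. On its own strand the group is thus bounded on either side by long stretches with no listed position.

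The positions were spread over 3 of the 7 introns. Intron 5, which joins exons 5 and 6 and is the longest at 472.6 kb (25440078 to 25912641), held 70 positions, or 82.4% of the intronic ones in 52.8% of the intron length. Its density was 14.8 positions per 100 kb. Intron 3 (25920238 to 26133241, 213 kb) held 13 positions, or 6.10 per 100 kb. Intron 1 (26184812 to 26331003, 146.2 kb) held 2, at 26315486 and 26310532, or 1.37 per 100 kb. Introns 2 (50.7 kb), 4 (7.4 kb), 6 (3.2 kb) and 7 (1.4 kb) held 0. The density thus differed by intron and not only the count, with intron 5 above intron 3 and intron 3 above intron 1. A second annotated start, that of ENSMUST00000191835.1 at 26153307, lies 179.2 kb into the gene, so the 2 positions of intron 1 lie upstream of it and the other 84 downstream.

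**Figure D1:**
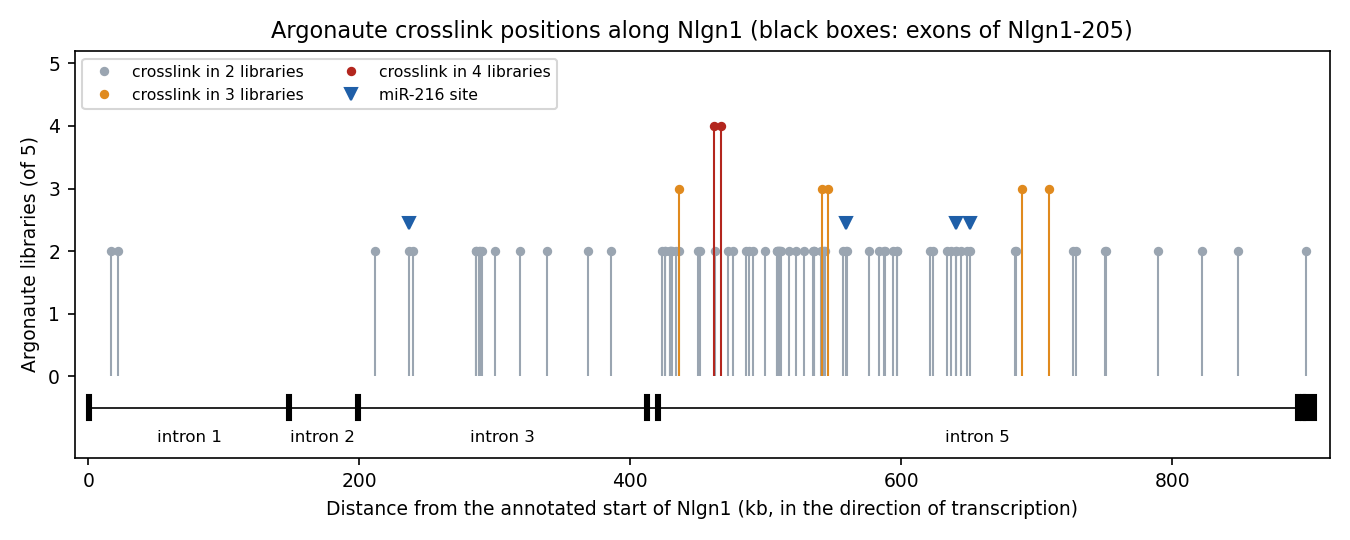
Crosslink positions along Nlgn1, by distance from the annotated start in kb on the x axis and by the number of Argonaute libraries on the y axis, with exons of Nlgn1-205 as black boxes and miR-216 sites as triangles. The 70 positions of intron 5 crowd towards its 5′ end, where both positions found in 4 libraries lie, and intron 2 is empty.

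Within intron 5 the positions were most frequent near its 5′ end. From the first to the last of 4 stretches of 118.1 kb, in the direction of transcription, there were 34, 25, 8 and 3 positions, or 28.8, 21.2, 6.77 and 2.54 per 100 kb. The first 50% of the intron held 59 of 70 positions (84.3%, exact Clopper-Pearson 95% interval 73.6 to 91.9, which covers counting error only), and the median position lay 25.7% of the way along. The first position after the 5′ splice site was at 25908874, 3768 nt into the intron, and the last was at 25484287. Intron 3 had 9 positions in its first 50% and 4 in the rest, with the median at 42.1% of its length.

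**Figure D2:**
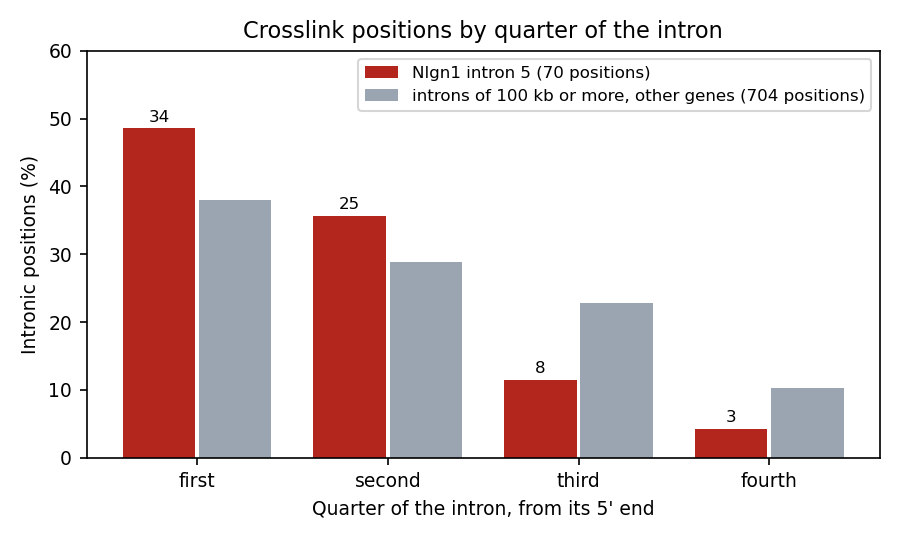
Share of intronic positions, in percent, in each of 4 equal stretches of the intron from its 5′ end, for the 70 positions of Nlgn1 intron 5 (counts above the bars) and for 704 positions in introns of 100 kb or more of other genes. The share is highest in the first stretch in either set, and lowest in the last; the Nlgn1 bars include 1 position in an exon of Gm37573.

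A higher share near the 5′ end was also present in the long introns of other genes. In introns of 100 kb or more, 704 positions of 229 other genes lay in the first 50% in 471 cases (66.9%, 63.3 to 70.4), with a median of 35.7% of the intron; without Rorb, the gene with the most such positions after Nlgn1, the share was 66.8%. Introns of this length with 10 or more positions numbered 10, from 9 genes, and all 10 had over 50% of their positions in the first 50%. For this set, positions in an exon of another gene were left out, which leaves 69 in Nlgn1 intron 5, of which 58 (84.1%) lay in the first 50%. The share was 92.3% in the first introns of Tox, a nuclear HMG-box protein, and of Hs3st4, a heparan sulfate sulfotransferase, each with 13 positions. It was 68.4% of 57 in intron 1 of Rorb, a nuclear receptor of rod and horizontal cell development, and 54.5% of 11 in intron 1 of Cadm2, a synaptic adhesion protein. Nlgn1 intron 5 therefore lies inside the range of these introns, below Tox and Hs3st4. The difference from other introns was not tested, since positions of 1 intron share their RNA.

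**Figure D3:**
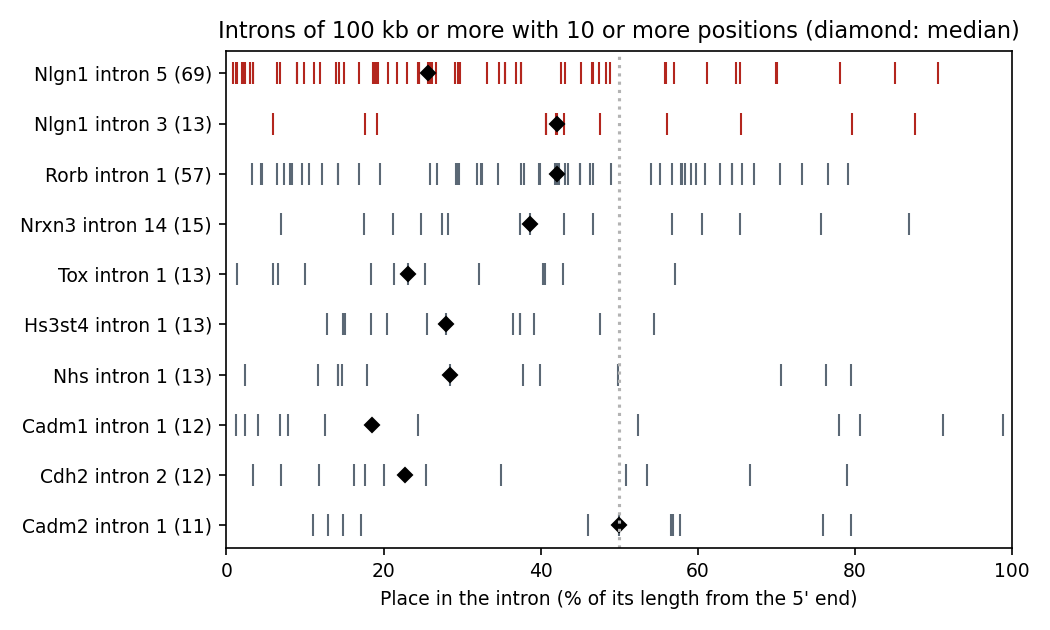
Place of each position in introns of 100 kb or more with 10 or more positions, in percent of intron length from the 5′ end on the x axis; each row is an intron with its number of positions, and diamonds are medians. The median is 25.7% in Nlgn1 intron 5 and 42.1% in its intron 3, beside 18.5% in Cadm1, the lowest, and a place near the middle in Cadm2, the highest.

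The listed Nlgn1 positions were scattered rather than stacked. The deposited set is labelled as predominant crosslinks. If near neighbours had been reduced to 1 position in it, close pairs would be few in any gene, which was not tested. Between neighbouring intronic positions the median gap was 3.14 kb (interquartile range 0.655 to 9.86 kb), the smallest 6 nt and the widest 189.8 kb. Of 84 gaps, 2 were at most 50 nt, 23 were from 51 to 1000 nt and 59 were over 1000 nt. Joining positions up to 50 nt apart left 83 clusters, of which 81 held a single position and 2 held a pair, at 25896508 with 25896514 and at 25735545 with 25735565. Their reach from first to last was 831.2 kb. Looser groups were present: joining gaps up to 1000 nt gave 4 runs of 3 or more positions, all in intron 5, with 19 of the 85 intronic positions. The fullest run had 7 positions in 3.15 kb, from 25821283 to 25824432, each in 2 libraries. Another had 5 positions in 2.42 kb, from 25788959 to 25791377. Together with the run of 3 from 25796746 to 25797207, it gave 8 positions within 10 kb. No 10 kb of the gene held more, and 8 were also present from 25815137 to 25824432 and from 25896508 to 25906483. The fullest 100 kb, from 25772224 to 25870323, held 31 positions (36.5%).

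None of the 85 intronic positions lay within 500 nt of an annotated Nlgn1 exon. The nearest, at 25908874, was 3768 nt away, and the median distance was 91.4 kb. Stretches of 500 nt beside exons are a small part of the 892.8 kb of intron, so few positions would lie there by length alone. The same share for other genes was not computed. An annotated gene on the same strand, Gm37573 (sense intronic, 2 exons, 25695195 to 25700303), lies inside intron 5 and spans 2 of the positions. That at 25699036 lay in the intron of Gm37573 and that at 25695450 in its exon, each in 2 libraries. The annotated genes on the other strand that overlap Nlgn1, Gm24250, Gm6197 and A830092H15Rik, had no position.

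The position at 25695450 is the single intronic position of Nlgn1 for which sequence was read, through the Gm37573 transcript of GENCODE M21. It is shown with the crosslinked base in capitals (mm10, chr3:25695436-25695464, minus strand, written 5′ to 3′).
Gm37573 exon: tatacatgcatattTtctgtatcaagagc
The crosslinked base was T, the base that 4-thiouridine replaces, as it was at the 3′ UTR position and at all 10989 exonic positions of the series read in this way. Since the base never differed, it checks coordinates and strand and is not a result about Nlgn1. The 41 nt around these 2 Nlgn1 positions held neither TGAGATT nor AGAGATT, the full 7mer matches of miR-216a and miR-216b, read on the RNA strand. Of 10914 exonic windows of the same length, 0.586% held the first and 0.440% the second.

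The number of libraries behind each Nlgn1 position was low. Of the 85 intronic positions, 78 were found in 2 libraries, 5 in 3 libraries, 2 in 4 libraries and 0 in 5. For comparisons with other genes, positions in an exon of any gene were left out, which leaves 84 in Nlgn1. Of these, 7 were found in 3 or more libraries (8.33%, 3.42 to 16.4), beside 8.99% (7.88 to 10.2) of the 2436 intronic positions of other genes and 25.6% of all positions of the series. The Nlgn1 share lies near that of other intronic positions. The 7 positions were all in intron 5. Those in 4 libraries were at 25870323 and 25865751, 42.3 and 46.9 kb from the 5′ splice site. Those in 3 libraries were at 25896514, 25790757, 25786464, 25643289 and 25623324. The first 2 stretches of intron 5 held 3 and 2 of them, the third held 2 and the last held 0.

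The 4 miR-216 sites were all intronic, 3 in intron 5 and 1 in intron 3, and the linked crosslink of each was found in 2 libraries. In the direction of transcription, the first was at 26095608 to 26095613 in intron 3, named for miR-216b, and it ended 6 nt before its crosslink at 26095602. The second, at 25773445 to 25773450, was also named for miR-216b and began 15 nt after its crosslink at 25773465. The third, at 25692121 to 25692126, was again named for miR-216b and ended 9 nt before its crosslink at 25692112. The last, at 25682003 to 25682008, was named for miR-216a and miR-216b together and contained its crosslink at 25682004. Those in intron 5 lay 29.5%, 46.7% and 48.8% of the way along it. The sites thus fell on either side of their crosslinks, and none of their positions was among the 7 found in 3 or more libraries.

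All 4 intervals were 6 nt long, which tells what they match. Their own sequence was not read here, but sites of the same name and length in annotated exons all had the same sequence: all 78 intervals of 6 nt named for miR-216b read AGAGAT, and all 84 of 6 nt named for both read GAGATT. By that rule 3 Nlgn1 sites are offset 6mers of miR-216b and 1 is a 6mer shared by both microRNAs. Whether flanking bases extend them was not tested. Of the 76 intronic sites of the series, 65 were of 6 nt, so this length is the usual one. Of the same 76, 28 (36.8%) were named for miR-216b alone. The Nlgn1 share rests on only 4 sites, and the difference was not tested.

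Of the 84 intronic positions of Nlgn1 in no exon of any gene, 4 (4.76%, 1.31 to 11.75) had a miR-216 site within 20 nt, beside 2.79% (68 of 2436, 2.17 to 3.53) of the intronic positions of other genes. The intervals cover counting error only, and the difference was not tested. The series held 76 intronic sites in 68 genes, and Nlgn1 had the most. Cdh2, encoding N-cadherin, had 3, and Celf2, an RNA-binding protein, Gm47283, Pcdh9, a protocadherin, and Rorb had 2 each. Over all intronic sites, 6 of 76 (7.89%) had a crosslink in 3 or more libraries. Sites lay upstream of the crosslink in 18, downstream in 41 and over it in 17.

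Among 1374 genes with intronic positions, 954 had 1, and Nlgn1 had the most. Counted as above, the 84 Nlgn1 positions were 3.33% of the 2520 in the series. Rorb had 63, Nrxn3, a presynaptic neurexin, had 26, Auts2, a chromatin and cytoskeleton regulator, had 25, Grip1, a scaffold for glutamate receptors, had 21, and Ncam1, a neural adhesion protein, had 17. Length did not order these genes: Nlgn1 has 892.8 kb of intron, against 169.5 kb in Rorb, 1600 kb in Nrxn3 and 1083 kb in Auts2. Per 100 kb of intron, the value was 9.41 in Nlgn1, 37.2 in Rorb, 5.90 in Ncam1, 3.36 in Grip1, 2.31 in Auts2 and 1.63 in Nrxn3. By this density Nlgn1 was at rank 4 of 23 genes with 10 or more intronic positions, after Purg, Rorb and Gm47283. Purg and Gm47283 have 29.2 and 30.6 kb of intron.

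**Figure D4:**
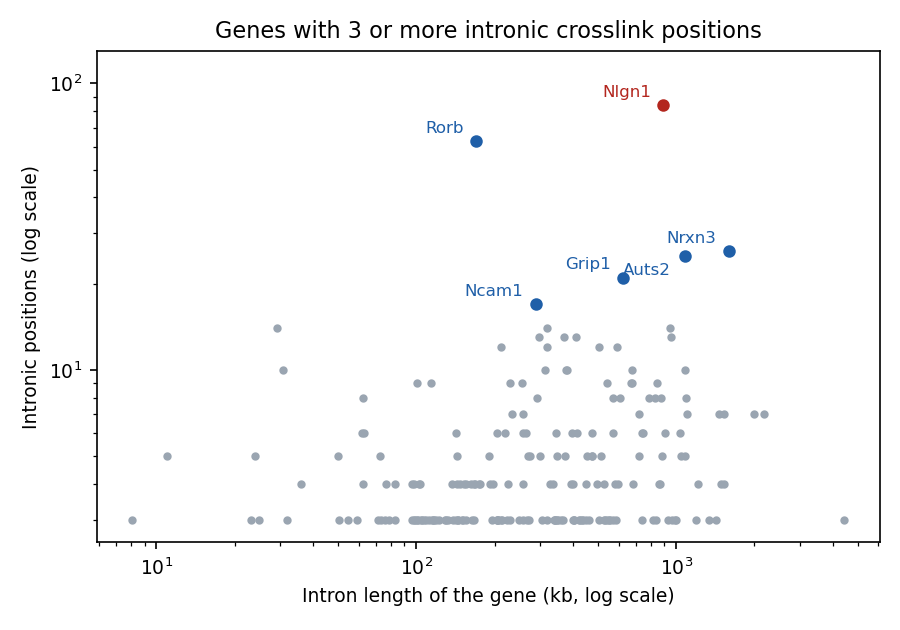
Number of intronic positions (log scale) against intron length in kb (log scale) for each gene with 3 or more. Nlgn1 has 84 positions in 892.8 kb, above genes of like or greater intron length such as Auts2 with 25 and Nrxn3 with 26.

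Among 224 protein-coding genes with 500 kb or more of intron, 128 (57.1%) had an intronic position, the median was 1, and the highest count after that of Nlgn1 was 26. Of these genes, 75 have more intron than Nlgn1. Gaps between neighbours were longer in Nlgn1 than in Rorb and shorter than in the other 4 named genes, with a median of 3.17 kb in Nlgn1, against 1.49 kb in Rorb, 11.6 kb in Ncam1, 13.9 kb in Grip1, 19.7 kb in Nrxn3 and 22.0 kb in Auts2. Pairs at most 50 nt apart were few in all of them: 2 of 83 gaps in Nlgn1, 4 of 62 in Rorb, 1 of 25 in Nrxn3 and 0 in Auts2, Grip1 and Ncam1.

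**Figure D5:**
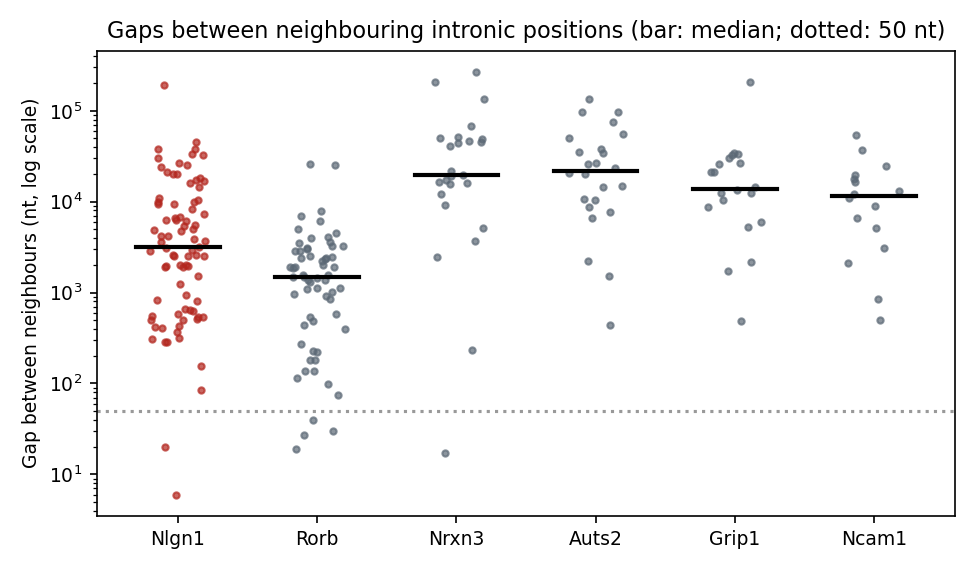
Gaps in nt (log scale) between neighbouring intronic positions in Nlgn1 and in the 5 other genes with the most of them; bars are medians and the dotted line is at 50 nt. Nlgn1 and Rorb have the lowest medians, at 3.17 and 1.49 kb, and few gaps of any gene fall under the line.

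Per length, the value of Nlgn1 in exon was not above that in intron, while in the pooled crosslinked genes exon was far above intron. Nlgn1 was chosen for its intronic number and its exon value rests on 1 position, so this difference was not tested. Nlgn1 had 7.45 exonic positions per 100 kb of exon, from 1 position in 13.4 kb, and 9.41 intronic positions per 100 kb of intron, a ratio of 0.792. Over the 4867 protein-coding genes with a crosslink, exons had 30.8 positions per 100 kb and introns 0.580, a ratio of 53.1; these genes were chosen for having a crosslink, so the levels are high by choice. Among the genes named, Rorb had 42 exonic positions, or 379.2 per 100 kb of exon, and Ncam1 had 14, or 161.6. Grip1 was closer to Nlgn1, with 21 intronic and 1 exonic position. Of 162 protein-coding genes with 10 or more positions, the median intronic share was 10%, and 9, Nlgn1 among them at 97.7%, had a share over 90%.

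Partners of neuroligin at the synapse were read from a list of 44 genes of the neuroligin and neurexin families, postsynaptic scaffolds, receptors and other synaptic adhesion proteins, of which 43 were in the annotation. A crosslink was present in 23 (53.5%, beside 22.1% of all 22028 protein-coding genes), an intronic one in 15 and a miR-216 site in 1, Dlgap2, a postsynaptic scaffold protein. Many of these genes are long. Of the 24 with 100 kb or more of intron, 17 had a crosslink and 15 (62.5%) an intronic one. Of all 2262 protein-coding genes with 100 kb or more of intron, 47.3% and 30.5% did. A miR-216 site was present in 1 of the 24, beside 3.98% of the 2262. Length is not matched above this limit, as Nrxn3 has 1600 kb of intron. Of the 224 protein-coding genes with 500 kb or more of intron, 57.1% had an intronic position, and a closer match for length was not made. Nrxn3, a presynaptic ligand of neuroligins, had 29 positions, of which 26 were intronic. The adhesion proteins Cadm1 and Cadm2 had 17 and 15 positions, of which 12 and 13 were intronic, and the scaffold Magi2 had 12, of which 7 were intronic. Ptprd, a receptor phosphatase of the presynaptic side, had 9 positions, of which 2 were intronic. Nlgn2, the neuroligin of inhibitory synapses, has 8.9 kb of intron and had 2 positions, both exonic. Together the 43 genes had 86 intronic positions, against 84 in Nlgn1 counted in the same way.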

How the data were processed

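The labels describe 5 Argonaute and 2 IgG PAR-CLIP libraries from retina explants. Per the submitters' processing notes, CASAVA 1.8.2, STAR and bedtools were used with mm10; the sources used here give neither their roles nor other steps. The deposited crosslink score counts, per the file headers, the samples with that crosslink. The deposited miR-216 score has no header; all 404 entries matched the score of a crosslink up to 20 nt away, and repeats were merged into 394 sites. Per-library values were not analysed here, so precision rests on exact Clopper-Pearson intervals for counting error, and no test between groups was made.

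Positions were placed in same-strand genes of GENCODE M21 (GRCm38, the mm10 assembly) in Python 3.11.15 with scipy 1.17.1. A position was intronic to Nlgn1 where no Nlgn1 exon held it; between genes, positions in an exon of any gene were left out. Introns came from the protein-coding transcript with the best APPRIS tag, then the longest coding sequence and transcript. Clusters joined gaps up to 50 nt. Exonic sequence came from GENCODE transcripts. Intron numbering, distances and clustering were tested on simulated data for either strand.

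Genes named by rule are the 5 others with the most intronic positions, the 5 others with the most intronic miR-216 sites (ties by symbol) and the 6 partners with the most positions, of which 1 is not reported here; Tox, Hs3st4, Purg, Nlgn2 and Dlgap2 were named after their values were seen. Gene, partner list and rules were chosen with earlier results of these data known.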

Additional observations from a re-analysis of the deposited data

How the results depend on the processing

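Of 20 alternatives to 7 results, 12 left a count or rank within 1.5 times of the reported one or a share within its 95% interval. Requiring 3 or more libraries left 7 intronic positions, all 7 of them in intron 5 and in 7 clusters, and 0 miR-216 sites. These counts are lower by construction. Of these 7 positions, 71.4% lay in the first 50% of intron 5, a share that rests on few positions. A threshold of 4 libraries gave a share of 2.35%, also lower by construction. Without positions in an exon of any gene it was 2.38%, beside 1.64% of the 2436 intronic positions of other genes. Joining gaps up to 5000 nt gave 33 clusters, while limits from 20 to 1000 nt gave 60 to 83. Per 100 kb of intron Nlgn1 was at rank 4, while by number of positions or of clusters it was at rank 1. The limit of 1000 nt, leaving out exons of any gene and the share in the first 50%, with its alternative, were chosen after seeing the data. No paired analysis was possible because values of single libraries are pooled in the tables; leaving out each library was not run, for that reason. Depth is unknown, so a stretch with no listed position may still be bound.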

Other observations

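The nearest crosslink on the opposite strand lay outside Nlgn1, at 26335882 on the plus strand, 3.42 kb upstream of its annotated start, and was found in 2 libraries. The gene was cut into 19 stretches of 50 kb, the last of them shorter, from 900 to 906.2 kb. Of these, 4 had no position, the short last one among them. The fullest, from 500 to 550 kb after the start, had 19.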
